A study of Mus musculus with 468 samples.

Results

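The glutathione S-transferase genes described here are 10 genes chosen by symbol from the 23180 in the table: Gsta3 and Gsta4 (alpha class), Gstm1 and Gstm2 (mu), Gstp1 (pi), Gstt1 and Gstt3 (theta), Gsto1 (omega), Gstk1 (kappa) and Gstz1 (zeta). All 10 passed the filter on low counts, as did 18380 genes in all. They were read in RNA sequencing of adipose tissue, the gonadal fat pad per the methods of the study, from Diversity Outbred mice. This outbred stock descends from 8 inbred founder strains, so nearly every animal carries its own genotype, and the labels name no engineered allele and no agent. Per the labels the diet of every mouse was rich in fat (45 percent) and sugar, and the libraries form 1 group with 1 library a mouse. Each SD is over all libraries. The methods name both sexes and several breeding generations, whereas the labels give neither sex, generation, age nor batch. The labels hold no mice on another diet and no groups to compare. The questions put to the data were how high each gene stood, whether its levels fell into steps or reached a null-like floor, and whether the family varied together, with Nqo1 or with cell content.

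Glutathione S-transferases join the tripeptide glutathione to electrophilic compounds, such as lipid aldehydes and drug metabolites, or use it as a cofactor to isomerize or reduce them. In fat cells they meet aldehydes formed when membrane lipids are oxidized. Several alpha, mu and pi genes are textbook targets of NRF2 (Nfe2l2), a transcription factor held back by KEAP1 and released by oxidants, which binds the antioxidant response element together with a small MAF protein. Nqo1, a quinone reductase, is the usual marker of that response. Kappa and zeta enzymes have other tasks: GSTK1 is found in mitochondria and peroxisomes and helps adiponectin form multimers, and GSTZ1 isomerizes maleylacetoacetate in the breakdown of tyrosine.

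Stretches of coding sequence are shown first because they bear on which counts can be told apart. The mu genes Gstm1 and Gstm2 were 85.9% identical over their aligned longest coding sequences, with a longest identical run of 60 bases, shorter than the 100-base reads. A stretch of 120 bases from base 163 of both coding sequences (GENCODE M21, GRCm38) is printed 5′ to 3′, with the 5 differing bases in capitals:
Gstm1: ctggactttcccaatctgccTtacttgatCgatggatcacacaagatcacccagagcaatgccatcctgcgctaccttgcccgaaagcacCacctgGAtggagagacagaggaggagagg
Gstm2: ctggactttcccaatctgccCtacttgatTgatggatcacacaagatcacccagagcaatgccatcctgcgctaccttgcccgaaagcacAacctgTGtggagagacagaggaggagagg
Gstp1 and its neighbor Gstp2 were 98.1% identical, with 12 differing bases in 630 and an identical run of 300 bases, longer than a read. Bases 1 to 120, which hold 6 of the 12 differences, are printed in the same way:
Gstp1: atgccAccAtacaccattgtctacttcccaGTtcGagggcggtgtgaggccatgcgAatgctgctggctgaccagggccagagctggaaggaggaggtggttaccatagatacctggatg
Gstp2: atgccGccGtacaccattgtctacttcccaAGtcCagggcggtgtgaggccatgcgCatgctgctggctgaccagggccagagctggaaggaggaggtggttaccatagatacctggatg
Of all 100-base stretches of Gstp1 transcripts, 25.1% also occurred in another annotated transcript (Gstp2 or Gstp-ps). The share was 10.8% for Gstt3 (with Gm20441, which overlaps it), 6.4% for Gstz1 (with the overlapping genes Pomt2 and Gm6566), 5.9% for Gstm1 (with Gstm2-ps1, Gm8834 and Gstm3) and 0.4% for Gstm2 (with Gm12499). It was 0.0% for the other 5 genes. Gstp1 counts are therefore uncertain to the extent that expectation maximization divided reads between it and Gstp2. Counts that are not whole hold divided reads. Counts were whole in 0.0% of the libraries for Gstp1 and Gstz1, 4.915% for Gstm1, 38.25% for Gstm2 and 69.02% for Gstt3. For the other 5 genes the share was 99.57% or more.

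The antioxidant response element was searched for by its core letters, TGACNNNGC on either strand, in windows from 250 bases before to 50 bases after each RefSeq start (GRCm38.p6). These letters can include the AP-1 letters TGACTCA. Of the 9 members with a window, 1 (11.1%) held a match, beside 14.0% of 27025 genes and 9 of 20 listed NRF2 targets (45.0%). The match was in Gsta3, with its first base at -121. Gsta4 had no window, and the window of Nqo1 itself, a listed NRF2 target, held no match. The 250 bases before the start are shown for Gsta3, with the match in capitals, and for Gstm1 and Gsto1, which had the highest correlation with Nqo1 and with the NRF2 targets below and no match in their windows. They lie at chr1:21240335-21240584 (+ strand), chr3:108017974-108018223 (- strand, the first of 2 Gstm1 windows) and chr19:47854723-47854972 (+ strand).
Gsta3: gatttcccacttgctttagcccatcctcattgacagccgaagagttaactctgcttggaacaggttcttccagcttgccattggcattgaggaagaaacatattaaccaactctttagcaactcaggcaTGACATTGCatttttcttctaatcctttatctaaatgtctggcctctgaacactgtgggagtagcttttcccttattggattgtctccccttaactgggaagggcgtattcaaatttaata
Gstm1: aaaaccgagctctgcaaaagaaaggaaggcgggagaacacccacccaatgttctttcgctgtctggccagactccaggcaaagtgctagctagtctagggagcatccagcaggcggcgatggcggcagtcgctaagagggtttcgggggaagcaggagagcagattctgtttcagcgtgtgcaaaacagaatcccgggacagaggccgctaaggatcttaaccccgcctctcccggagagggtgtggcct
Gsto1: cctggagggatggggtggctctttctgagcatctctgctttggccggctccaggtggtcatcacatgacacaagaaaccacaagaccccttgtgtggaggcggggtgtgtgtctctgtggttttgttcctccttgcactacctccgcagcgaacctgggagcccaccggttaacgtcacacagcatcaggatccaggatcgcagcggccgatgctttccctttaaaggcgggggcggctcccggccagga
A match is a description of letters, and its absence says only that these letters were not in the window.

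Depth, as total expected counts, was 35.3 M in the shallowest library and 138 M in the deepest (median 82.0 M). Adipocyte markers (17 of 17 past the filter) summed to 13736 to 50909 CPM (expected counts scaled by library size, not by gene length) and macrophage markers (19 of 19) to 459.5 to 7989 CPM, and no marker of either list was at 0 in any library. Counts from the Y chromosome were present in 51.5% of the libraries and absent in 48.5%, and relations are also given within each of these sets. The library of mouse DO379 stood apart by epididymis transcripts, at 1814 CPM for the list where the next library had 211.8 CPM and the median was 0.164 CPM. The library of DO237 had the highest summed oxidative phosphorylation transcripts (20371 CPM, next 16984) and NRF2 targets (16311 CPM, next 13765). The library of DO180 had the highest Gstm5 (286.1 CPM, next 85.79) and Gsto2 (39.98 CPM, next 5.613). The adipocyte progenitor list (14 genes) summed to 4129 to 22291 CPM, the endothelial list (12) to 739.3 to 2260 and the mesothelium list (10) to 85.05 to 801.1. Relations and pairs of members were also computed without the libraries of DO180, DO237 and DO379, and those that fell under 0.3 in size are given. Other values include these libraries.

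Levels in CPM are given first for each gene on its own, and the order of the genes per length follows. Gstz1 (ENSMUSG00000021033, chromosome 12, 87147165 to 87164723, + strand) had 470.9 ± 106.7 CPM (SD), with 148.3 as the lowest value, 465.9 as the median and 840.4 as the highest. Gstm1 (ENSMUSG00000058135, chromosome 3, 108012255 to 108017973, - strand) had 267.5 ± 87.14 CPM, from 110.1 through a median of 250.03 to 593.6. Its neighbor Gstm2 (ENSMUSG00000040562, chromosome 3, 107981702 to 107986453, - strand) had 101.8 ± 31.45 CPM, from 24.64 through 100.6 to 237.5. The highest Gstm2 value was that of DO379, the library with epididymis transcripts, and the next was 223.7 CPM. Mu enzymes conjugate a wide range of small electrophiles.

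Gstp1, the pi enzyme, varied least among mice. Gstp1 (ENSMUSG00000060803, chromosome 19, 4035407 to 4037985, - strand) had 77.35 ± 12.74 CPM, from 44.3 through 77.68 to 139.8, a 3.16-fold span. Its biological coefficient of variation (BCV, the relative SD between libraries beyond counting noise) was 0.167, at the 42.4th percentile of the 9511 genes whose mean was 10 CPM or more. Gsto1, an omega enzyme that reduces dehydroascorbate (ENSMUSG00000025068, chromosome 19, 47854970 to 47864790, + strand), had 45.77 ± 14.31 CPM, from 16.61 through 43.66 to 91.98. Gsto1 lies within the span of Cfap43, annotated on the other strand, and shared no 100-base stretch with it. Gstk1 (ENSMUSG00000029864, chromosome 6, 42245935 to 42250447, + strand) had 29.9 ± 6.711 CPM, from 11.0 through 29.97 to 49.12.

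The alpha genes varied most. Gsta4, whose enzyme is known for clearing the lipid aldehyde hydroxynonenal (ENSMUSG00000032348, chromosome 9, 78182774 to 78209349, + strand), had 35.67 ± 17.34 CPM, from 2.956 in DO192 through a median of 34.38 to 90.1. That is a 30.5-fold span, with a BCV of 0.529 at the 92.9th percentile. Gsta3 (ENSMUSG00000025934, chromosome 1, 21240589 to 21265661, + strand) had 68.98 ± 35.68 CPM, from 15.07 through 62.16 to 254.7, and a BCV of 0.478. The theta enzymes act on small halogenated compounds. Gstt1 (ENSMUSG00000001663, chromosome 10, 75783813 to 75798584, - strand) had 33.75 ± 12.53 CPM, from 6.479 through 32.76 to 77.47. Gstt3 (ENSMUSG00000001665, chromosome 10, 75774115 to 75781414, - strand) had 10.79 ± 4.572 CPM, from 3.127 in DO237 through 9.667 to 46.59. No member was at 0 in any library. Nqo1 had 3.772 ± 1.325 CPM, from 0.9908 in DO237 through 3.57 to 9.311 in DO379.

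Levels are comparable between genes only per length. Per kilobase of annotated exon, the order was Gstm1 (181.6 ± 59.16 CPM per kb), Gstz1 (92.56), Gstm2 (60.64), Gstp1 (49.97), Gsta4 (28.17), Gsto1 (22.63), Gstt1 (22.09), Gstk1 (20.35), Gsta3 (15.88) and Gstt3 (2.808), with Nqo1 at 2.429. Gstm1 exceeded Gstz1 in 98.3% of the libraries, and Gsta3 exceeded Gstt3 in 99.6%. The middle of the order was not separated: Gsta4 exceeded Gsto1 in 64.1% of the libraries, Gsto1 exceeded Gstt1 in 52.4% and Gstt1 exceeded Gstk1 in 54.1%. The union of all annotated exons was used, so a gene with long seldom-used exons is placed too low on this scale.

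**Figure D1:**
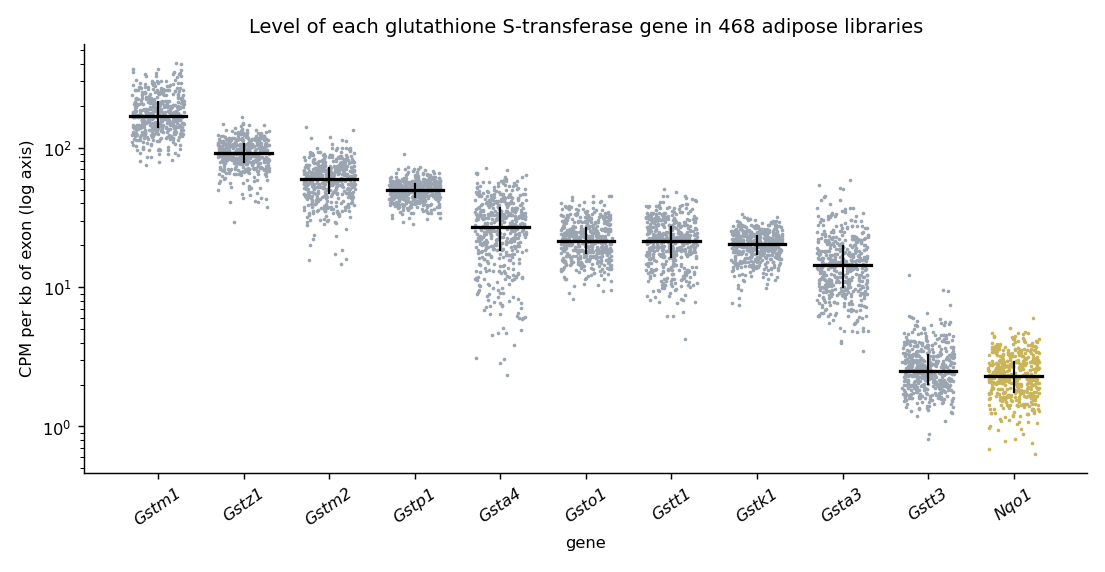
Level of each member and of Nqo1 in all libraries, in CPM per kb of exon on a log axis, 1 point a library, with black lines for the median and the quartiles. Gstm1 stands highest (mean 181.6), Gstt3 lowest among the members (2.808), and the points of Gsta4, Gsto1, Gstt1 and Gstk1 overlap over most of their range.

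By the gap and bimodality measures below, none of the 10 genes passed the 95th percentile of all genes, and none was at 0 in any library. For each gene, the largest gap between neighboring libraries in log2 CPM (with at least 5 percent of the libraries on each side) was divided by the SD and ranked among the 18380 genes. The members' percentiles ran from 6.37 for Gstt1 to 76.2 for Gstz1. The bimodality coefficient, which rises when values form separate humps, was highest for Gsta4 at 0.484, below the 95th percentile of all genes (0.535). Gsta4 had a tail of low libraries: its skewness was -0.99, and 18 libraries lay more than 2 log2 units below its median, beside at most 1 library for any other member. These 18 are fewer than 5 percent of the libraries, so the gap measure could not register a step that set them apart. Whether such a small group forms a step was not tested for any member. In the deposited VST values 10 libraries of Gsta4 lay that far below. The same counts of members past the 95th percentile, 0 for either measure, came from the deposited VST values and from a prior count of 0.5.

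**Figure D2:**
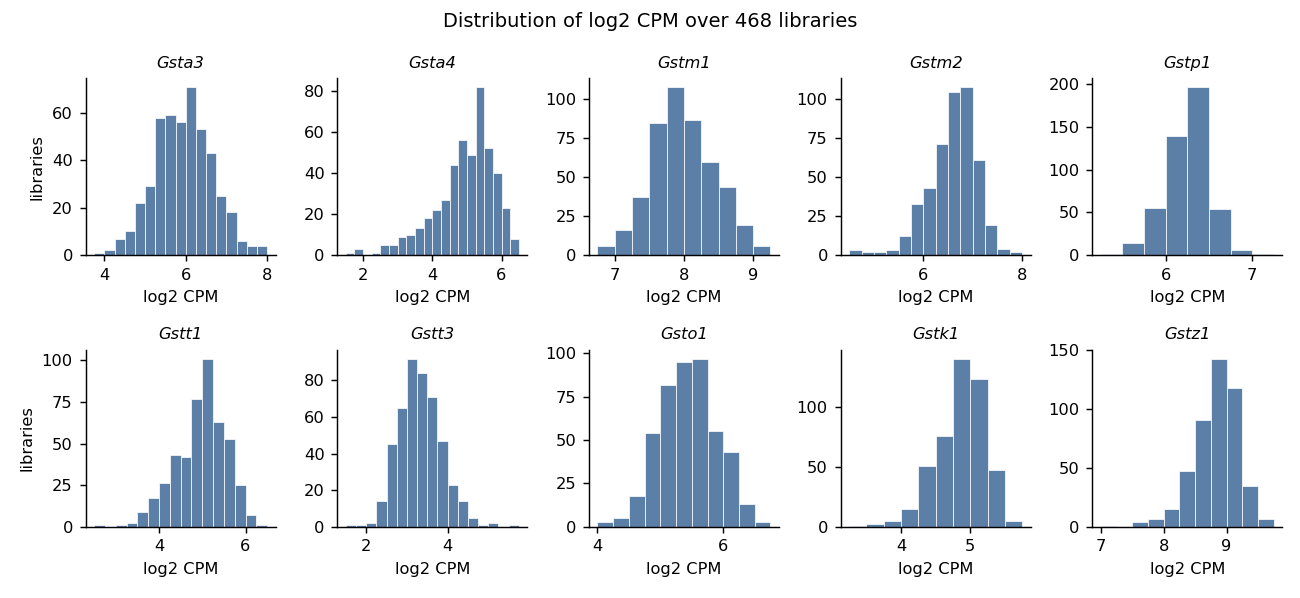
Histograms of log2 CPM (x axis) against number of libraries (y axis) for the members, over all libraries. Each gene forms 1 hump, and Gsta4 has a tail of low libraries, 18 of them more than 2 log2 units below its median.

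No member was called as related to Nqo1. A call needed an edgeR adjusted p under 0.05 and a Pearson r of log2 CPM of 0.3 or more in size. By that rule 0 of 10 members were called, beside 9.47% of 18379 genes called with positive r and 11.1% with negative r. On the adjusted p alone 9 of 10 members passed, as did 70.2% of all genes. In all, 50 relations of members with 5 measures and 45 pairs were computed, and permutation p-values are unadjusted. Gstm1 came nearest: r was 0.295 and rho 0.312 (permutation p = 1e-05 each, the smallest that 100000 resamples can give), with a slope of 0.147 ± 0.02 log2 units per SD of Nqo1 (edgeR adjusted p = 6.47e-12). Its r was 0.291 without the 2 libraries farthest from the median of Nqo1 and 0.212 to 0.405 within 5 blocks of library numbers. It was 0.233 in libraries without Y counts and 0.133 in those with, and 0.166 given Xist and Y chromosome genes, which accounted for 14.8% of the variance of Nqo1.

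Other members leaned both ways with Nqo1. Gsto1 had r = -0.243, Gsta4 -0.217 and Gstk1 -0.211, each with permutation p = 1e-05, and Gstz1 had r = 0.0016 (permutation p = 0.973). The sign of r differed between libraries without and with Y counts in 5 of 10 members. Gsta4 had r = -0.359 without and 0.179 with, and Gstp1 -0.196 and 0.186. The difference between these sets of libraries was not tested. With the macrophage and adipocyte scores in the model, Gsta3 (r = 0.315) and Gstm1 (0.308) were called with Nqo1, beside 10.46% of all genes.

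Among the wider list of NRF2 targets, more genes were negatively than positively related to Nqo1. Of 23 listed targets tested, 1 was called with positive r (Slc7a11, the cystine transporter, r = 0.323), beside 9.47% of all genes. With negative r 4 were called (Tkt -0.513, Taldo1 -0.484, Me1 -0.445 and Pgd -0.377), beside 11.1% of all genes. Most listed targets had a mean of at least 10 CPM. Of the 9511 genes at that level, 1702 were called with negative r and 893 with positive r, so the lean to negative calls was not particular to the list. The median r was -0.138 beside 0.019 over all genes. Tkt, Taldo1 and Pgd encode enzymes of the pentose phosphate pathway and Me1 encodes malic enzyme, and the products of Pgd and Me1 make the NADPH that fat synthesis uses. Of 8 regulators, 2 were called, both with negative r, beside 11.1% of all genes. These were Keap1 (-0.385) and Cul3 (-0.312), parts of the ligase that degrades NRF2. Given Xist and Y chromosome genes, both were under 0.3 in size (Keap1 -0.238, Cul3 -0.249), as were Slc7a11 (0.157) and Pgd (-0.275), whereas Tkt (-0.374), Taldo1 (-0.357) and Me1 (-0.303) were not. Nfe2l2 itself had r = -0.0997 with Nqo1 and between -0.271 (Gstz1) and 0.224 (Gsto1) with the members.

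With a score over the 24 listed NRF2 targets, Nqo1 included (the mean of their z-scored log2 CPM, with no glutathione S-transferase in it), 2 of 10 members were called, 1 each way. The background was 11.0% of 18356 genes called with positive r and 6.37% with negative r. Gsto1 had r = 0.458 and rho 0.453 (permutation p = 1e-05 each), a slope of 0.204 ± 0.019 log2 units per SD of the score and an edgeR adjusted p of 8.09e-24. That r was 0.384 to 0.607 within library-number blocks, 0.409 to 0.534 within mouse-number blocks, 0.51 in libraries without Y counts and 0.419 in those with. Gstt3 had r = -0.314 (rho -0.305, permutation p = 1e-05 each, edgeR adjusted p = 5.71e-11), and r was -0.294 without the 2 libraries farthest from the median score and -0.299 without DO180, DO237 and DO379, both under 0.3 in size. Among the targets, Gsto1 had its highest r with the peroxiredoxin Prdx1 (0.405), followed by 0.391 with Taldo1, 0.386 with Pgd and 0.352 with Me1. Of the 24 targets, 6 had r of 0.3 or more with Gsto1, beside 3.94% of genes elsewhere in the genome, and the median over the targets was 0.163. The lowest values were those of Nqo1 (-0.243), Slc7a11 (-0.0945) and Abcc1 (-0.0773).

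Cell content scores were related to more members than Nqo1 was, and to more genes in general. Of all genes, 46.22% were called with the macrophage score, 41.38% with the adipocyte score and 20.55% with Nqo1. Each member had a mean of at least 10 CPM. Among such genes the shares were 57.99%, 50.01% and 27.28%, beside 5, 6 and 0 of 10 members. The macrophage score was negatively related to 5 members, beside 23.2% of 18361 genes called with negative r, and positively to 0, beside 23.0%. Gsta4 had r = -0.72 and rho -0.693 (permutation p = 1e-05 each), falling by 0.584 log2 units per SD of the score (SE 0.028, edgeR adjusted p = 1.48e-68). Gstp1 (-0.684), Gstk1 (-0.618), Gstt1 (-0.481) and Gsta3 (-0.388) followed. In bulk tissue, fewer cells of a type and less RNA per cell cannot be told apart. The r of Gsta4 was -0.716 without the 2 libraries farthest from the median score, -0.785 to -0.675 within library-number blocks and -0.768 to -0.7 within mouse-number blocks. Of 19 macrophage markers, 17 had r of -0.3 or lower with each of Gsta4, Gstp1 and Gstk1. Of genes elsewhere in the genome, 38.8%, 37.2% and 34.4% had r of 0.3 or more in size, of either sign, with these members in that order.

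Within the libraries without and with Y counts, the relation with macrophage transcripts had these values. Gsta4 had r = -0.552 and -0.678, whereas Gsta3 had -0.151 and -0.74 and Gstt1 -0.137 and -0.652. Over the members, 3 reached -0.3 in both sets, the median r was -0.144 without Y counts and -0.559 with, and 5 members had opposite signs. Gstm1 was an example, at 0.159 and -0.456, beside r = -0.0055 over all libraries. Gsto1 had the opposite signs, at -0.192 and 0.336. These differences were not tested.

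The adipocyte score was positively related to 6 members, beside 18.5% of 18363 genes with positive r, and negatively to 0, beside 22.9%. Gstk1 stood highest, with r = 0.746 and rho 0.697 (permutation p = 1e-05 each), a slope of 0.257 ± 0.011 log2 units per SD and an edgeR adjusted p of 3.19e-79. Its r was 0.738 without the 2 farthest libraries, lay between 0.667 and 0.798 in library-number blocks and was 0.623 without Y counts and 0.737 with. The other 5 were Gstp1 (0.665), Gstz1 (0.632), Gsta4 (0.56), Gsta3 (0.447) and Gstt1 (0.404). Gstm1 (-0.0048), Gstm2 (0.0573) and Gstt3 (-0.0094) had values near 0. For Gstm1 the values were -0.0378 in libraries without Y counts and 0.261 in those with.

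Genes of oxidative phosphorylation, the mitochondrial respiratory chain, were positively related to 4 members, beside 23.3% of 18354 genes with positive r. These were Gsta4 (r = 0.622), Gstp1 (0.609), Gstk1 (0.559) and Gsto1 (0.306). Gstm1 was the 1 member with a negative call (-0.375, permutation p = 1e-05), beside 26.9% of genes with negative r. In either direction 5 of 10 members were called, beside 50.25% of all genes and 60.23% of those with a mean of at least 10 CPM. All 26 listed respiratory genes had r of -0.3 or lower with Gstm1 and of 0.3 or higher with Gsta4, Gstp1 and Gstk1. The Gstm1 relation was -0.359 in libraries without Y counts and 0.0474 in those with, and -0.158 given Xist and Y chromosome genes. Gsto1 was at 0.297 without DO180, DO237 and DO379 and at 0.228 given Xist and Y chromosome genes. Given the macrophage and adipocyte scores, r was 0.151 for Gsta4, 0.11 for Gstp1 and 0.0372 for Gstk1, each under 0.3, whereas it was 0.407 for Gsto1 and -0.585 for Gstm1. It was also beyond -0.3 for Gstz1 (-0.451), Gsta3 (-0.4228) and Gstt3 (-0.342), which had r of 0.0902, 0.0952 and -0.0961 before.

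**Figure D3:**
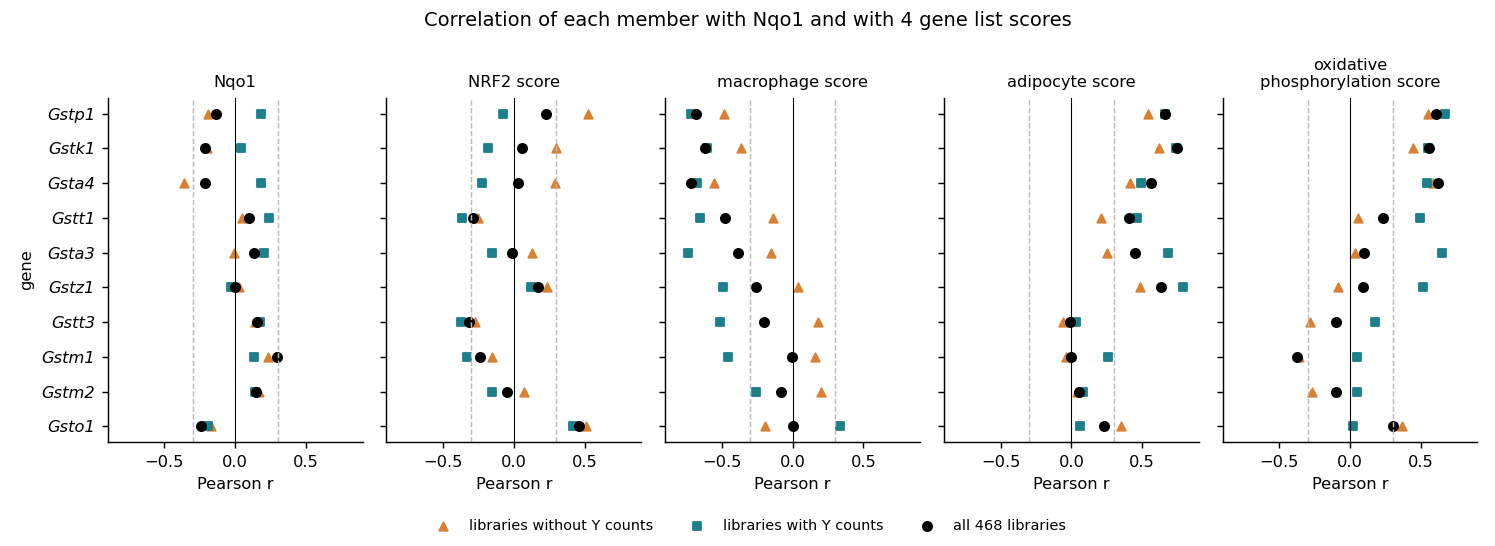
Pearson r (x axis) of each member (y axis) with Nqo1 and with 4 gene list scores, over all libraries (circles), those without Y counts (triangles) and those with (squares). Dashed lines mark r of -0.3 and 0.3. Members lie inside the lines for Nqo1 over all libraries, and Gstk1 reaches 0.746 with the adipocyte score.

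**Figure D4:**
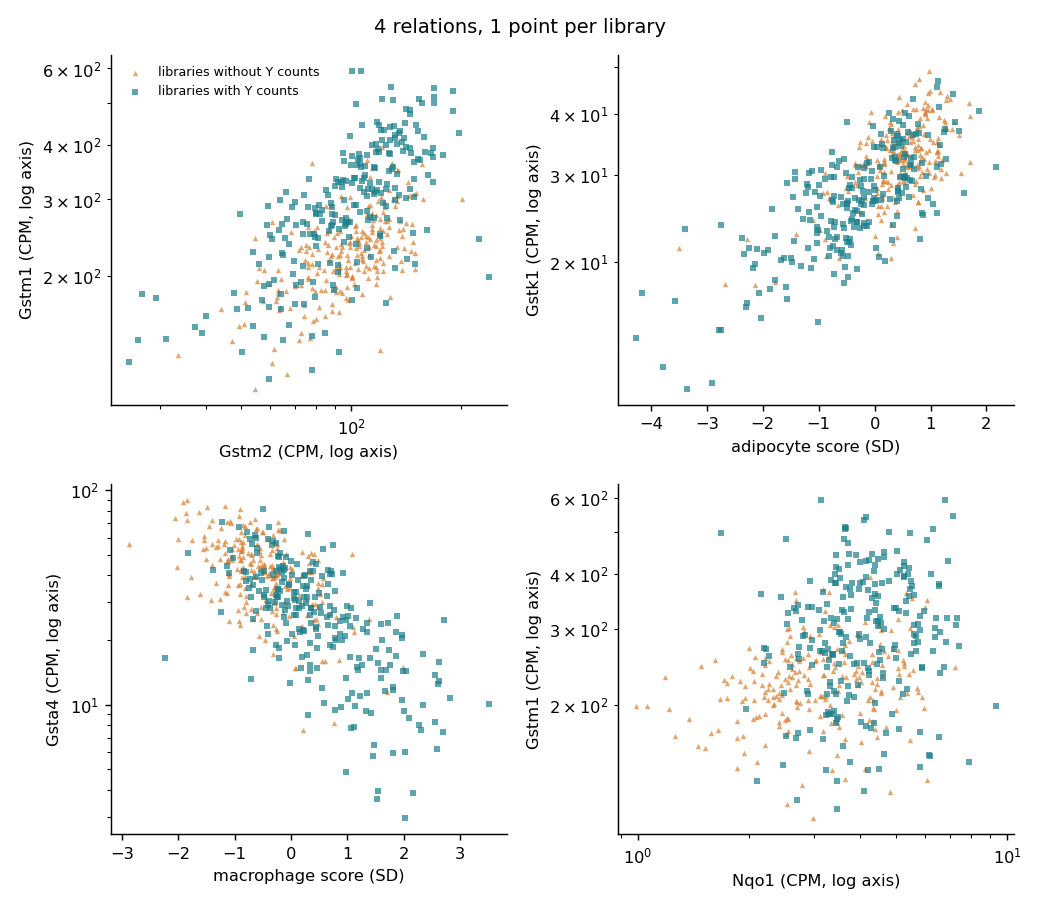
Single libraries for 4 relations: Gstm1 against Gstm2, Gstk1 against the adipocyte score, Gsta4 against the macrophage score and Gstm1 against Nqo1, with CPM on log axes and scores in SD. Triangles are libraries without Y counts and squares those with. The r over all libraries is 0.616, 0.746, -0.72 and 0.295 in that order.

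Pairs of members mostly had positive r, 38 of 45. The median r was 0.2075, and 16 pairs (35.6%) had r of 0.3 or more, beside a median r of 0.0 and 8.67% over 168903010 pairs of genes past the filter. No pair had r of -0.3 or less. Pair values ranged from -0.276 (Gstt3 with Gsto1) to 0.669 (Gstp1 with Gstk1). Gstp1, Gstk1, Gsta4, Gstt1 and Gsta3 went together: each pair among them had r between 0.391 and 0.669. Gsto1 had r under 0.3 with every other member. Given the macrophage and adipocyte scores, 8 pairs had r of 0.3 or more in size, 6 of them among the 16, and 1 of the 8 was negative (Gstt1 with Gsto1, -0.353). The median was then 0.1255.

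Physical neighbors in the family had these values. The mu genes Gstm1 and Gstm2, 25.8 kb apart, had r = 0.616 and rho 0.607 (permutation p = 1e-05 each), 0.613 in libraries without Y counts, 0.687 in those with, 0.623 without the 2 farthest libraries and 0.53 to 0.709 within library-number blocks. Given the cell content scores it was 0.617, whereas Gstp1 with Gstk1 had 0.669 before and 0.2685 after, and Gsta4 with Gstp1 0.639 and 0.245. The theta genes Gstt1 and Gstt3, 2.4 kb apart, had r = 0.337 (rho 0.327, permutation p = 1e-05 each), 0.312 given the scores. The transcripts of each pair share no 100-base stretch among themselves, by the comparison given above with the sequences. That comparison sought exact matches in 1 annotated reference, whereas reads were aligned to the founder transcriptomes. Counts were whole in 4.915% of the libraries for Gstm1 and 38.25% for Gstm2, so divided reads entered both. The part of divided reads in these r values was not tested.

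**Figure D5:**
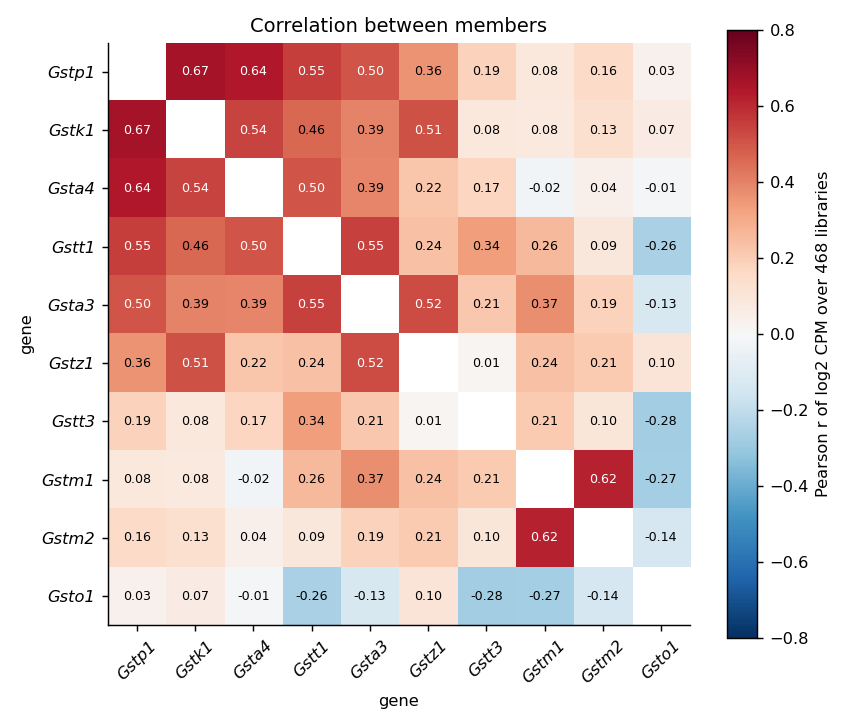
Pearson r of log2 CPM over all libraries between each 2 members, by color. Gstp1, Gstk1, Gsta4, Gstt1 and Gsta3 form a block of positive values (0.391 to 0.669), Gstm1 and Gstm2 reach 0.616, and Gsto1 is near 0 or negative with the others (lowest -0.276).

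The genes whose levels were most like each member's were sought among genes whose mean was 10 CPM or more, by Pearson r over all libraries. For Gsta4 they were Maob (r = 0.724), Fahd2a (0.724) and the superoxide dismutase Sod1 (0.716), and for Gstp1 they were Bphl (0.764), Sod1 (0.747) and Ddrgk1 (0.736). Gstk1 was nearest to Vegfb (0.743), the hormone-sensitive lipase gene Lipe (0.739) and Amy1 (0.727). Gstz1 was nearest to the transaminase gene Gpt (0.674), Abcd2 (0.66) and lipoprotein lipase Lpl (0.653). Gsta3 was nearest to Cyb5a (0.627), the adipokine Retn (0.623) and Mogat1 (0.612), and Gstt1 to Pde1a (0.665), Rhbdl1 (0.635) and Echdc2 (0.635). Gstm1 came first for Gstm2, and Jup (0.564) and Abat (0.543) followed it for Gstm1. After Gstm1, Gstm2 had no gene above 0.319 (Mien1) and then Nelfe (0.309). Gsto1 was nearest to Gyg (0.512), Zfyve26 (0.506) and 4931406C07Rik (0.49), and Gstt3 to Zfp512b (0.466), Vamp2 (0.46) and Cbx7 (0.438).

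Of the genes within 1 Mb, the most alike was named for each member. Gsta4 had r = 0.67 with Mto1 (238.9 kb away), Gstp1 had 0.662 with Gm49405 (29.6 kb) and Gstt1 had 0.626 with Gstt2 (32.5 kb). For Gstk1 it was Tcaf2 (0.415), for Gsto1 Atp5md (0.34), for Gsta3 Kcnq5 (0.0536), for Gstz1 Slirp (0.127) and for Gstt3 Gstt1 (0.337). Gstm1 and Gstm2 were most alike to each other. Of Gstm2's 43 neighbors within 1 Mb, only Gstm1 reached 0.3, and of Gstp1's 66 neighbors 21 did (31.8%, beside 18.0% of genes elsewhere).

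Other genes of the family were read from a list. Of 20 other listed genes, 14 passed the filter, and 0 of those 14 were called with Nqo1 in either direction, beside 20.55% of all genes. The microsomal Mgst1 had 514.7 ± 150.1 CPM and Mgst3 had 98.37, which per kilobase of exon were 255.7 and 89.68 CPM per kb beside 181.6 for Gstm1. On the log2 CPM scale of the mu genes Gstm6 and Gstm7, 30 libraries lay more than 2 log2 units below the median of Gstm6 and 44 more than 2 above that of Gstm7, whose values ran from 1.415 to 127.2 CPM in DO379 (next 107.8). In the deposited VST values these counts were 0 for Gstm6 and 31 for Gstm7. Hpgds, the prostaglandin D synthase known from macrophages and mast cells, had the lowest mean r with the members among these 14 (-0.3695), with r = -0.662 with Gsta4, -0.648 with Gstp1 and -0.657 with Gstk1. Gstp2, with which Gstp1 shares reads, had 12.55 ± 5.996 CPM and r = -0.0289 with Gstp1. Gstm4, Gstt2, Gsto2, Mgst1 and Mgst3 had r between 0.432 and 0.515 with Gstk1. Gsta2, Gstm3, Gstt4 and Gstp-ps did not pass the filter, and Gsta1 and Gsta5 were not among the genes analysed here.

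Glutathione metabolism genes were related to Nqo1 in both directions. Of 25 genes tested with Nqo1, 3 were called with positive r (Ggt7, Gpx7 and Cndp2) and 4 with negative r (Oplah, Hagh, Glrx5 and Gss), beside 9.47% and 11.1% of all genes, with a median of -0.138. Given Xist and Y chromosome genes, Oplah (-0.314) was the 1 gene of these 7 with r of 0.3 or more in size, and Ggt7 was at 0.299. Hagh, which hydrolyzes lactoylglutathione, had the highest mean r with the members (0.285), with 0.677 for Gstp1 and 0.664 for Gstk1. Glrx5, a mitochondrial glutaredoxin, came next (0.185). Anpep, a membrane peptidase, had the lowest mean r (-0.357), after the dipeptidase Cndp2 (-0.234). The catalytic subunit of glutathione synthesis, Gclc, had r = 0.411 with Gsta4 and 0.378 with Gstp1, and the modifier subunit Gclm had a mean r of -0.0463. Of the NRF2 targets, Cbr1 (mean r 0.28), Taldo1 (0.204) and Gclc (0.179) were highest. The ferritin gene Ftl1 (-0.2415) and Hmox1, heme oxygenase (-0.357), were lowest, with Hmox1 at -0.693 for Gsta4. Of the regulators, Keap1 (0.1615), Mafg (0.141) and Cul3 (0.0737) were highest and Maff (-0.217) and Bach1 (-0.24), a repressor at the same element, lowest.

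Gstz1 acts in the breakdown of tyrosine, next to the last step. Fah, the last step, had 132.8 ± 35.98 CPM, and the earlier steps had medians of 1.083 CPM (Hpd), 0.261 CPM (Hgd) and 0.895 CPM (Tat). Fah and Gstz1 had r = 0.373, and Fah reached 0.609 with Gstp1 and 0.601 with Gstk1. Gstz1 with Hpd had 0.204 and with Hgd 0.128. By mean r with the members Fah (0.282), Gstz1 (0.267) and Hpd (0.198) were highest on the list and Tat (0.126) and Hgd (0.104) lowest. Of the 6 listed genes, 2 were called with Nqo1, both with negative r (Fah and Fahd1), beside 11.1% of all genes. Given Xist and Y chromosome genes, Fah was at -0.186 and Fahd1 at -0.309. Liver transcripts (8 genes summed) ranged from 23.84 to 11028 CPM over the libraries, and their part in the levels of Hpd, Hgd and Tat was not tested.

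Adiponectin was read beside Gstk1. Adipoq, the adiponectin gene, had 2064 ± 626.5 CPM and r = 0.6 with Gstk1, 0.513 with Gstp1 and 0.482 with Gstz1, and its mean r of 0.353 with the members was the highest of the adiponectin assembly list. The chaperones of that list had negative values: Erp44 had a mean r of -0.195, Pdia4 -0.158 and Pdia3 -0.288. None of the 5 genes of the list past the filter was called with Nqo1, beside 20.55% of all genes. Adipoq is also a marker in the adipocyte list.

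The labels give 2 orders, mouse number and library number, and no member was called for either by edgeR. With mouse number and library number in 1 edgeR model, 0 of 10 members were called for mouse number, beside 26.4% of 18380 genes, and 0 of 10 for library number, beside 0.321%. At an unadjusted p under 0.05 the counts of members were 1 and 0. The share of all genes at that threshold is not given here, so these counts have no background. By limma, 1 member (Gsta4) was called for mouse number, beside 23.7% of all genes, and 0 for library number, beside 0.0%. With Xist and Y chromosome genes in the edgeR model, 1 (Gstp1) was called for mouse number, beside 13.79%. The slope of Gsta4 was -0.046 ± 0.023 log2 units per 100 mouse numbers (edgeR adjusted p = 0.13).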

How the data were processed

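Adipose RNA of 468 mice was selected for polyadenylated transcripts, given a spike-in mix and sequenced as paired reads, with 1 library a mouse, so n is 468 for each SD and each relation over all libraries. Of these, 241 held Y chromosome counts and 227 did not. Per the methods, each read of a pair was aligned as a single end to the joined founder transcriptomes and counted by EMASE within GBRS. The version of either tool, and any use of strand, is not given in the sources used here. Expected counts per gene were deposited by the authors, and 66.8% of them were whole within 1e-06, since shared reads are divided. A second deposited table holds log2-scale values from the variance stabilizing transformation (VST) of DESeq2, used here as an alternative. For 99.2% of the genes the position was that of GENCODE M21 (GRCm38, the build in the submitters' processing notes). No sample column was left unused.

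Genes reaching 10 counts in 50% or more of the libraries were kept. CPM used TMM factors (0.581 to 1.36) from edgeR 4.0.16, and log2 CPM used a prior count of 2. A score was the mean z-scored log2 CPM of a list. Rounded counts of all 18380 genes were fitted by edgeR's quasi-likelihood test on Nqo1, on each list score, and on mouse and library number, with Benjamini-Hochberg adjustment over all genes. A gene was left out of the fit on its own score. A relation was called at an adjusted p under 0.05 and r of 0.3 or more in size, and numbers at an adjusted p under 0.05 alone. Permutation tests were two-sided with 100000 resamples. Blocks were 5 runs of mouse or library numbers. On simulated data for the Nqo1 fit, 88.8% of genes with a slope of 0.2 and 99.0% of those with 0.4 were recovered, with 17 false calls among 18380 genes. Recovery there meant an adjusted p under 0.05 and the right sign. The threshold on r was not applied, so these shares do not describe the calls made here. Genes were simulated independently of each other, and the random seed was changed after a first result was seen.

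The members and gene lists were chosen with earlier results of these data known. Named are all members, other family genes by value or range, for each member the 3 most alike genes and the most alike gene within 1 Mb, and of each pathway list the genes with the 3 highest and 2 lowest mean r, together with Nqo1, Nfe2l2, Keap1, Gclc, Gclm, Adipoq, Fah, Hpd and Hgd. Genes called with Nqo1 were named after their values were seen, as were libraries that stand apart. Libraries of 1 mouse each were compared with one another: the median r between 2 libraries was 0.882, the highest 0.963, and 0 pairs were identical. Alternatives were DESeq2 1.42.0 and limma 3.58.1, DESeq2 size factors, other filters and prior counts, VST values, Spearman's rho, leaving out low depth, and covariates.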

Additional observations from a re-analysis of the deposited data

How the results depend on the processing

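Of the 50 relations of members, 18 had r of 0.3 or more in size, and this count was 16 to 20 under the other scalings, rho, prior count 0.5, low depth left out, covariates for numbers or Xist and Y chromosome genes, and without DO180, DO237 and DO379 (chosen after seeing the data). Given the macrophage and adipocyte scores, 7 of 30 relations changed sign. Of these, 2 were then beyond -0.3: Gsta3 with oxidative phosphorylation was -0.4228 (0.0952 before) and Gstz1 was -0.451 (0.0902 before). In the same setting 8 pairs of members had r of 0.3 or more in size instead of 16. The count of members called with Nqo1 was 1 with DESeq2 size factors (Gstm1), beside 20.57% of all genes. It was 2 with both scores in the model, beside 10.46%. With oxidative phosphorylation it was 3 instead of 5 with Xist and Y chromosome genes in the model, beside 39.38% of all genes instead of 50.25%. For mouse number the count of members was 1 with those genes in the model (beside 13.79% of all genes) and 1 by limma (beside 23.7%). Over all genes, 3776 were called with Nqo1 (46.1% positive), 814 with Xist and Y chromosome genes in the model (27.9% positive) and 1922 with both scores, and among genes of at least 10 CPM 34.4% of calls were positive. That restriction tests fewer genes and gave 5506 calls for the macrophage score (8487 in the full set), 4748 for the adipocyte score (7599, with 44.7% positive against 56.6%), 5713 for oxidative phosphorylation (9222) and 2847 for mouse number (4852). It moved the positive share of NRF2 score calls from 63.3% to 74.8%. Mouse number gave 2535 calls with Xist and Y chromosome genes in the model. Library number gave 59 calls (47.5% positive), 90 by DESeq2, 0 by limma, 32 without low depth (71.9% positive), 3 at 10 CPM (33.3% positive) and 202 with no filter. The cause of these shifts was not tested. No paired analysis was possible because all libraries form 1 group.

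Depth limits Nqo1 (mean 3.772 CPM) more than the lowest member, Gstt3 (10.79 CPM). Each mouse gave 1 library, so the spread combines animals and assay. The p-values test association across these libraries, which were treated as independent. Breeding generation and relatedness among mice were in no fit. Sex entered only as Xist and Y chromosome genes in an alternative fit. Labels give no sex, so libraries were split by Y chromosome counts, and no batch, which cannot be told apart from other differences between mice.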
